A study of Mus musculus with 14 samples.

Results

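A set of 10 genes that remove, or bind through, methylation of lysine 36 on histone H3 (H3K36) was examined in lung adenocarcinomas with and without an sgRNA against Setd2, the methyltransferase that makes the trimethylated form of this mark. The members were chosen by gene symbol: 5 erasers (Kdm2a, Kdm2b, Kdm4a, Kdm4b and Kdm4c), 3 readers (Zmynd11, Psip1 and Morf4l1) and 2 DNA methyltransferases that read the mark through a PWWP domain (Dnmt3a and Dnmt3b). All 10 were found among the 52550 rows of the gene table, and all 10 passed the filter on low counts. RNA was sequenced from 6 KPY-Ctrl and 8 KPY-Setd2KO tumors, with 27866266 to 51828846 estimated counts per KPY-Ctrl tumor and 20072236 to 40604404 per KPY-Setd2KO tumor. Both groups were KPY mice, which carry, among other alleles, both floxed alleles of Trp53 and a Cre-dependent YFP reporter at Rosa26. In both, a lentivirus delivered Cre, Cas9 and 1 sgRNA to the lung through the airway, against the bacterial BGal sequence in the controls and against Setd2 in the knockouts. The tumors of either group therefore shared the loss of Trp53. The mixed B6J and 129S4vJae mice were of both sexes, with their age stated only as an upper limit at tumor initiation. The promoter that drove Cre is not given in the sources used here. Per the study's methods, tumors were microdissected, matched for stage by histology and sorted for live YFP+ cells, whereas the sample labels speak of RNA from cell lines. The tumors of a group came from fewer mice than tumors and the mouse of each tumor was not given, so the tests treat tumors as independent and their p-values may be too small.

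Methyl groups on H3K36 are placed along transcribed genes, with the dimethyl form spread more widely and the trimethyl form concentrated in gene bodies. Erasers of the Kdm2 family act on the mono- and dimethyl forms, and those of the Kdm4 family act on trimethylated H3K9 and H3K36. Readers dock on the mark through chromodomains or PWWP domains and bring histone deacetylases, acetyltransferases, elongation control or DNA methylation to it. These readers and erasers are encoded by separate genes from Setd2, and their RNA is what was measured here, not the mark itself nor any enzyme's activity.

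Setd2 RNA was lower in the knockout tumors, with overlapping ranges. In KPY-Ctrl its lowest, median and highest levels were 41.9, 53.8 and 63.6 CPM (counts relative to the library total, scaled between tumors by TMM), and in KPY-Setd2KO 17.9, 30.4 and 47.4 CPM. By edgeR over 16836 genes the log2 fold change was -0.74 (SE 0.22, unadjusted p = 0.00486, adjusted p = 0.175). The exact permutation test of log2 CPM over all 3003 splits of the tumors, two-sided, gave p = 0.00466.

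The libraries also differed in RNA of other cell types, so member values are given below with that of leukocytes beside them. The 12 leukocyte markers together made up 565 to 9367 CPM in KPY-Ctrl tumors and 293 to 12249 CPM in KPY-Setd2KO tumors. Their mean log2 CPM, called the leukocyte-marker score, fell on either side of a gap between 5.64 and 8.36. On the high side, called leukocyte-rich here, lay 3 KPY-Ctrl and 4 KPY-Setd2KO tumors, and on the low side, called leukocyte-poor, 3 and 4. The 13 epithelial markers summed to 15000 to 69950 CPM in KPY-Ctrl and 6872 to 62185 CPM in KPY-Setd2KO, so lung epithelial RNA was present in all tumors. Their mean log2 CPM, the epithelial-marker score, was 7.51 to 8.69 in leukocyte-rich and 9.59 to 10.1 in leukocyte-poor tumors. The 7 T and B cell markers summed to at most 7.42 CPM in any tumor. The neutrophil list was higher in the knockouts for all 5 members tested, 3 of them at unadjusted p under 0.05, and summed to 4.17 to 38.6 against 18.2 to 61.7 CPM. Of 8 proliferation markers 7 were lower on average in the knockouts (231 to 374 CPM summed in KPY-Ctrl, 157 to 295 CPM in KPY-Setd2KO), 1 of them at unadjusted p under 0.05. Setd2 itself differed by -0.34 in mean log2 CPM between genotypes in the leukocyte-rich tumors, with overlap (44.8 to 56.0 CPM in controls, 32.7 to 47.4 CPM in knockouts), and by -1.27 in the leukocyte-poor tumors, without overlap (41.9 to 63.6 and 17.9 to 28.2 CPM). The interaction of genotype with the score, added after these values were seen, had an unadjusted p of 0.0272 for Setd2 and an adjusted p of 0.348. Its unadjusted p was under 0.05 for 11.6% of all genes. Endothelial markers summed to 14.2 to 33.1 against 18.2 to 57.1 CPM and fibroblast markers to 3.01 to 88.2 against 8.02 to 30.2 CPM. The 13 macrophage markers summed to 435 to 41119 CPM in KPY-Ctrl and 314 to 74966 CPM in KPY-Setd2KO. Within the leukocyte-rich tumors their mean log2 CPM was 6.96 to 8.82 in controls and 8.17 to 9.02 in knockouts. The leukocyte-marker score there was 8.36 to 8.86 against 8.75 to 9.03, and 3.61 to 4.76 against 3.45 to 5.64 in leukocyte-poor tumors. The genotypes were thus not matched for leukocyte RNA within a set. In a bulk sample fewer cells of a type and less RNA per cell cannot be told apart. Apart from the leukocyte, macrophage and epithelial scores used below, the part of these lists in the results was not tested.

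Across genotypes no member passed the threshold used by the study, an adjusted p under 0.05 with an absolute log2 fold change over 1. By edgeR none of the 16836 genes did (0.0% of all genes), nor did any gene reach an adjusted p under 0.05 alone. By DESeq2 457 of 34773 genes passed both limits, with no member among them. In that fit 4 members were under an unadjusted p of 0.05, beside 3508 of all genes. By edgeR, 5 of the 10 members differed at an unadjusted p under 0.05, 4 of them lower in KPY-Setd2KO (Kdm2b, Kdm4a, Kdm4b and Dnmt3b) and 1 higher (Morf4l1). Of all genes 13.7% were under that limit, 6.8% lower and 6.93% higher, or 9.7% lower and 4.92% higher with scaling by library size alone, where Morf4l1 was at an unadjusted p of 0.101. Missing a threshold does not show that a gene did not differ. The count of 5 rests on few tumors: it fell to 0 without KPY-Ctrl replicate 3 or KPY-Setd2KO replicate 4, to 1 without KPY-Ctrl replicate 4 or 5 or KPY-Setd2KO replicate 1 or 2, to 2 without KPY-Setd2KO replicate 3 and to 3 without KPY-Ctrl replicate 1. The groups overlapped for all 10 members. The median log2 fold change was -0.36 over the 5 erasers and 0.22 over the 3 readers, beside 0.03 over all genes tested.

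**Figure D1:**
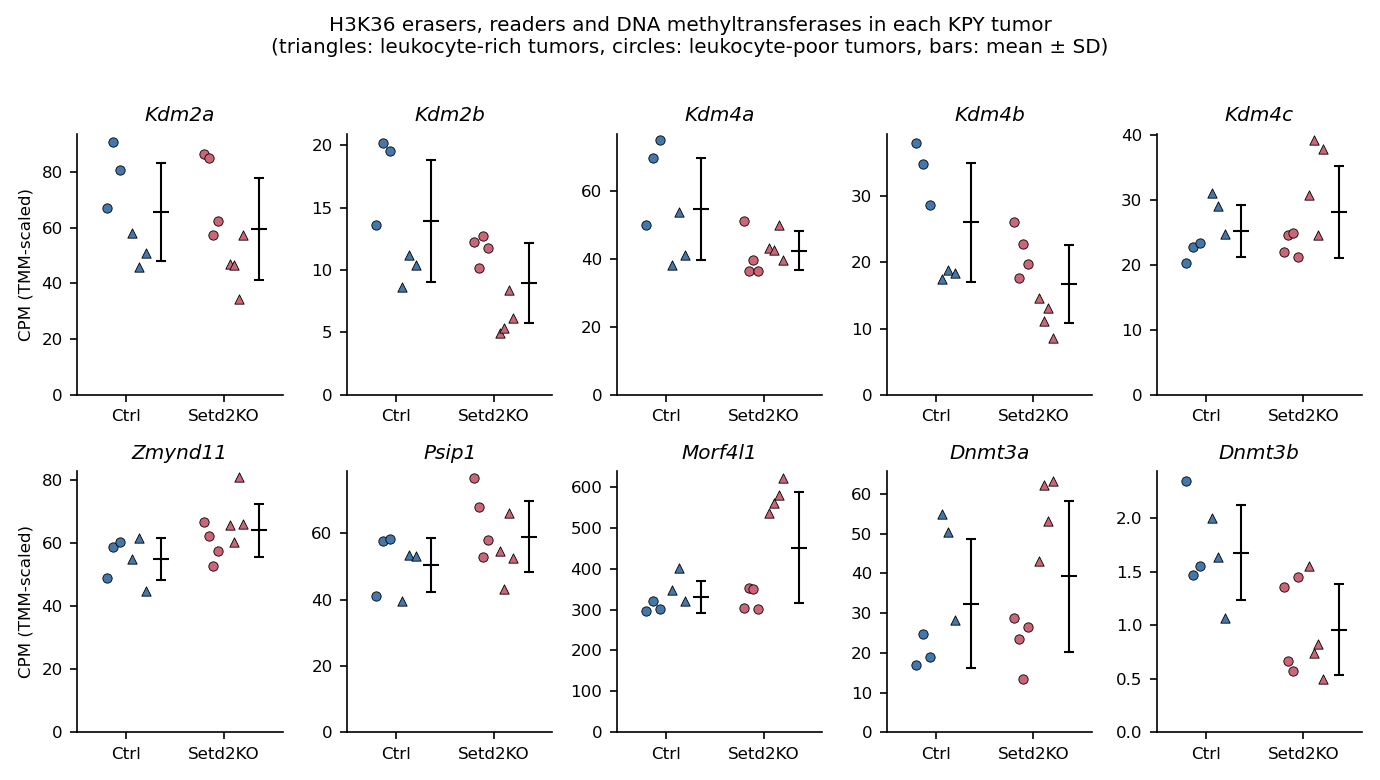
Level of each member in CPM on the vertical axes, 1 point per tumor, for 6 KPY-Ctrl (blue) and 8 KPY-Setd2KO (red) tumors, with triangles for leukocyte-rich and circles for leukocyte-poor tumors and bars for the mean ± SD. Kdm2b and Kdm4b sit lower in the knockouts within each of these sets, and the Morf4l1 values of 536 CPM and above all belong to leukocyte-rich knockouts.

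The promoters of the 4 members that differed at unadjusted p under 0.05 and have an entry in the RefSeq promoter table are shown because the Dnmt3 enzymes methylate, and the CXXC domain of Kdm2b binds, the CG dinucleotide. Each run holds the 200 bases upstream of a RefSeq start in GRCm38.p6, written 5′ to 3′ on the strand of the gene, with every CG in capitals.
Dnmt3b, chr2:153649249-153649448, plus strand: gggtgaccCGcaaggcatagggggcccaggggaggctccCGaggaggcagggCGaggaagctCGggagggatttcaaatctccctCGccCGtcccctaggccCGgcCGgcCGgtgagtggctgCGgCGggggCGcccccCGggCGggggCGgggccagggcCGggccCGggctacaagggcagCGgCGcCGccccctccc
Kdm2b, internal start, chr5:122900368-122900567, minus strand: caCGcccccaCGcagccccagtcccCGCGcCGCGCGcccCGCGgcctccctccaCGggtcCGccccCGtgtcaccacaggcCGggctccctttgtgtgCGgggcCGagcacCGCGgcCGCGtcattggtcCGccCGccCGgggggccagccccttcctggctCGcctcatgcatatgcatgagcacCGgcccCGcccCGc
Kdm4a, chr4:118180044-118180243, minus strand: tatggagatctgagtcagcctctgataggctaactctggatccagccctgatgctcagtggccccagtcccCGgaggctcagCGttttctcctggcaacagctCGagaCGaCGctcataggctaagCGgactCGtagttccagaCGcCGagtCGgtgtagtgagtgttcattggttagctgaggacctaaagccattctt
Morf4l1, chr9:90114821-90115020, minus strand: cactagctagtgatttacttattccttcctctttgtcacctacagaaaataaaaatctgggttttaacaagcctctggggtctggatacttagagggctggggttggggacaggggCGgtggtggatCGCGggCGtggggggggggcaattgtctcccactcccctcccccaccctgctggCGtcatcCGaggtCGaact
The Kdm2b window, which belongs to an internal start, held 26 CG, and 5.31% of the 32817 promoter windows of this length held as many or more. This start lies near 1 of the 8 annotated coding transcripts of Kdm2b. A neighbouring internal start had a window with 28 CG (chr5:122900351-122900550), which overlaps most of the one shown. The bases just after that neighbouring start occur in an annotated transcript, whereas those after the starts shown for Kdm2b and Morf4l1 do not. The windows of the other 2 Kdm2b starts, near 5 of the 8, held fewer, 11 CG (31.7% of windows with as many) and 19 CG (14.4%), and no GGGCGG. The Dnmt3b window held 20 CG (12.7% of windows with as many), that of Kdm4a 10 (34.2%) and that of Morf4l1 7 (42.4%), beside a median of 5 over all windows. The hexamer GGGCGG, searched on both strands and itself containing a CG, occurred 4 times in the Kdm2b window shown, 3 times in that of Dnmt3b, 1 time in that of Morf4l1 and not in that of Kdm4a, and 31.0% of all windows held it. No binding or methylation was measured in these tumors, so the letters describe the sequence alone.

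Among the erasers, Kdm2b (chr5:122870665-122989823, minus strand) encodes a demethylase of dimethylated H3K36 that is also a subunit of a noncanonical Polycomb repressive complex 1. In KPY-Ctrl its lowest, median and highest levels were 8.64, 12.4 and 20.2 CPM, and in KPY-Setd2KO 4.97, 9.28 and 12.7 CPM. The knockouts were lower on average with overlapping ranges, by a log2 fold change of -0.64 (SE 0.28, unadjusted p = 0.0377, adjusted p = 0.330). The exact permutation p, two-sided, was 0.0463. The groups separated within each leukocyte set. In the leukocyte-rich tumors the controls lay at 8.64 to 11.2 CPM and the knockouts at 4.97 to 8.41 CPM, and in the leukocyte-poor tumors at 13.6 to 20.2 and 10.1 to 12.7 CPM. Kdm2b overlaps 4 other annotated genes, 2 of them on its strand, so some of its counts are uncertain. A short form made from the internal start lacks the demethylase domain, and the gene-level counts do not separate it from the long form.

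Kdm4b (chr17:56326062-56402870, plus strand), a demethylase of trimethylated H3K9 and H3K36, followed the same order. Its lowest, median and highest levels were 17.5, 23.7 and 37.9 CPM in KPY-Ctrl and 8.56, 16.1 and 26.0 CPM in KPY-Setd2KO. The log2 fold change was -0.64 (SE 0.27, unadjusted p = 0.0316, adjusted p = 0.311), and the exact permutation p, two-sided, was 0.0406. In the leukocyte-rich tumors the 3 controls at 17.5 to 18.8 CPM lay above the 4 knockouts at 8.56 to 14.6 CPM. In the leukocyte-poor tumors the 3 controls at 28.6 to 37.9 CPM lay above the 4 knockouts at 17.6 to 26.0 CPM. Kdm2b and Kdm4b were thus the 2 members of 10 whose genotypes did not overlap in either set, both lower in the knockouts, beside 1.88% of all genes in that direction and 2.14% in the other. This split was made after the scores were seen, the genotypes were not matched for score within a set, and no test was run on it.

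Kdm4a (chr4:118136957-118180043, minus strand), a paralog with the same substrates, ranged from 38.3 to 74.98 CPM around a median of 52.001 in KPY-Ctrl and from 36.6 to 51.3 CPM around 41.2 in KPY-Setd2KO. The log2 fold change was -0.36 (SE 0.17, unadjusted p = 0.0470, adjusted p = 0.355), and the two-sided exact permutation p was 0.0569. The mean difference in log2 CPM was -0.66 in the leukocyte-poor tumors and -0.01 in the leukocyte-rich tumors. The interaction of genotype with the leukocyte-marker score, a test added after these values were seen, gave an adjusted p of 0.494 for Kdm4a, so the sizes were not shown to differ.

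The other erasers had smaller fitted differences. Kdm2a (chr19:4314419-4398285, minus strand), the closest paralog of Kdm2b, had a median of 62.6 CPM (46.0 to 90.9) in KPY-Ctrl and 57.3 CPM (34.2 to 86.5) in KPY-Setd2KO. Its log2 fold change was -0.14 (SE 0.23, adjusted p = 0.855). Kdm4c (chr4:74242497-74405860, plus strand) had medians of 24.2 CPM (20.4 to 31.1) and 24.9 CPM (21.2 to 39.3), with a log2 fold change of 0.16 (SE 0.17, adjusted p = 0.768). For both genes the fitted difference was smaller than its standard error.

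Among the readers, Morf4l1 (MRG15, chr9:90091665-90114774, minus strand) binds methylated H3K36 through a chromodomain and belongs to the NuA4 acetyltransferase and Sin3 deacetylase complexes. Its lowest, median and highest levels were 296, 320 and 401 CPM in KPY-Ctrl and 302, 444 and 621 CPM in KPY-Setd2KO. The knockouts were higher on average and 4 of them lay above every control, by a log2 fold change of 0.45 (SE 0.20, unadjusted p = 0.0464, adjusted p = 0.353). The exact permutation p, two-sided, was 0.0679. These 4 were the leukocyte-rich knockouts, which had more Setd2 RNA (32.7 to 47.4 CPM) than the leukocyte-poor knockouts (17.9 to 28.2 CPM). Morf4l1 lay at 536 to 621 CPM in them, against 321 to 401 CPM in the leukocyte-rich controls, whose scores reached lower. In the leukocyte-poor tumors the knockouts at 302 to 353 CPM overlapped the controls at 296 to 320 CPM. The interaction with the score had an unadjusted p of 0.0232 for Morf4l1 and an adjusted p of 0.330. No member passed adjustment for the interaction, beside 0.517% of all genes, while 11.6% of all genes were under an unadjusted p of 0.05 for it.

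Zmynd11 (chr13:9684833-9765330, minus strand), which reads trimethylated H3K36 on the variant histone H3.3 and restrains elongation, and Psip1 (LEDGF, chr4:83455680-83486459, minus strand), a PWWP protein that tethers partners to transcribed chromatin, were both above an unadjusted p of 0.05 by edgeR. Zmynd11 had a median of 56.8 CPM (44.6 to 61.6) in KPY-Ctrl and 63.8 CPM (52.7 to 80.8) in KPY-Setd2KO. Its log2 fold change was 0.22 (SE 0.13, unadjusted p = 0.104, adjusted p = 0.480), while the two-sided exact permutation p of mean log2 CPM was 0.0443. Psip1 had medians of 53.2 CPM (39.6 to 58.3) and 56.4 CPM (43.1 to 76.8), with a log2 fold change of 0.22 (SE 0.15, adjusted p = 0.575). Psip1 overlaps Snapc3 on the opposite strand.

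The DNA methyltransferases had fitted differences of opposite sign. Dnmt3b (chr2:153649450-153687730, plus strand), a de novo methyltransferase drawn to trimethylated H3K36 in gene bodies, was the member with the smallest unadjusted p. It was scarce, with 47 to 109 counts per KPY-Ctrl tumor and 11 to 65 per KPY-Setd2KO tumor. The lowest, median and highest levels were 1.07, 1.595 and 2.35 CPM in KPY-Ctrl and 0.501, 0.783 and 1.56 CPM in KPY-Setd2KO. The log2 fold change was -0.80 (SE 0.33, unadjusted p = 0.0291, adjusted p = 0.302), and the two-sided exact permutation p was 0.0133. The leukocyte-poor groups narrowly did not overlap (1.47 to 2.35 against 0.571 to 1.45 CPM), whereas the leukocyte-rich groups did (1.07 to 2.01 against 0.501 to 1.56 CPM). The share of all genes that separate in a single set is not given here. Separation in 1 set, for Dnmt3b as for Setd2 and Morf4l1, therefore only describes these tumors. Dnmt3a (chr12:3806007-3914443, plus strand), whose PWWP domain binds the dimethyl form, ranged from 17.0 to 54.9 CPM in KPY-Ctrl around a median of 26.5 and from 13.5 to 63.2 CPM in KPY-Setd2KO around 35.98. Its log2 fold change was 0.28 (SE 0.38, adjusted p = 0.820), smaller than its standard error. Each of these genes overlaps an annotated antisense transcript, and 1 annotated pseudogene bears the name of Dnmt3a, so reads they share may have been split.

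The profile of Dnmt3b over the 14 tumors, centred on its mean log2 CPM, was compared with that of each of the 16836 genes tested. The nearest were Fntb, the beta subunit of farnesyltransferase, at a root mean square difference of 0.33 on the log2 scale, E2f5, a transcription factor of the E2F family, at 0.35, and 5430430B14Rik at 0.38. The root mean square of the Dnmt3b profile itself was 0.64. These are the smallest distances over all genes tested, from a gene with few counts, and shared regulation was not tested.

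The leukocyte-marker score was then placed in the model beside genotype, and its slope was tested. With a rising score Kdm2a, Kdm2b and Kdm4b fell and Kdm4c, Morf4l1 and Dnmt3a rose, 6 of 10 members at an adjusted p under 0.05. Of all genes 56.8% passed, 28.4% rising and 28.4% falling, so the share of members is near the background. The slope was steepest for Dnmt3a at 0.25 log2 per unit of score (SE 0.05, adjusted p = 0.000274), whose median was 53.3 CPM (28.3 to 63.2) in leukocyte-rich and 23.5 CPM (13.5 to 28.7) in leukocyte-poor tumors. Kdm4b fell by 0.20 per unit (SE 0.03, adjusted p = 7.57e-05) and Kdm2b by 0.19 (SE 0.04, adjusted p = 0.00101). Kdm2a fell by 0.15 (SE 0.03, adjusted p = 0.000613). Morf4l1 rose by 0.12 (SE 0.03, adjusted p = 0.00194) and Kdm4c by 0.10 (SE 0.03, adjusted p = 0.00484). With scaling by library size alone the slopes of Morf4l1 and Kdm4c lost their calls (0.05 with adjusted p = 0.163, and 0.02 with adjusted p = 0.458). The slopes of Kdm4a, Zmynd11, Psip1 and Dnmt3b did not pass, at -0.04, 0.02, -0.05 and -0.05. With scaling by library size alone Kdm4a (-0.12, adjusted p = 0.0135) and Psip1 (-0.12, adjusted p = 0.00517) passed as falling, so that 1 member rose and 5 fell, beside 18.7% of all genes rising and 40.3% falling in that fit.

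**Figure D2:**
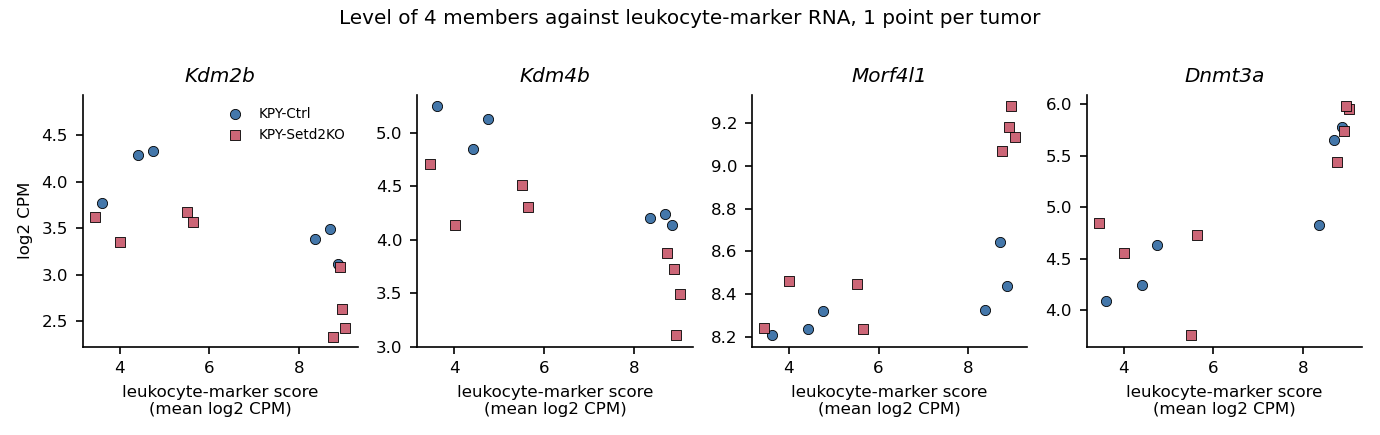
Level of Kdm2b, Kdm4b, Morf4l1 and Dnmt3a in log2 CPM against the leukocyte-marker score (mean log2 CPM of 12 leukocyte genes), 1 point per tumor, with circles for 6 KPY-Ctrl and squares for 8 KPY-Setd2KO tumors. Kdm2b and Kdm4b are lower and Dnmt3a higher on average, with overlap, in the 7 tumors at a score of 8.36 or more, and at either end the Kdm2b and Kdm4b points of the knockouts lie under those of the controls.

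Beside the score, Kdm4b was the only member of 10 to pass at an adjusted p under 0.05 for genotype, where 5.38% of all genes passed, 2.3% as lower and 3.07% as higher. With scaling by library size alone 6.0% passed as lower and 2.3% as higher. Its log2 fold change was -0.57 (SE 0.13, adjusted p = 0.0279), short of the fold threshold of the study. The call was lost without KPY-Ctrl replicate 2 (adjusted p = 0.0525), KPY-Ctrl replicate 4 (0.0742) or KPY-Setd2KO replicate 6 (0.0545), and with a score made from macrophage markers (0.0801). It held by DESeq2 (0.00303), with scaling by library size alone (0.0170), without a filter on low counts (0.0390) and beside an epithelial-marker score (0.0240). The epithelial-marker score was lower in every leukocyte-rich tumor than in any leukocyte-poor tumor, so it is not an independent check. Kdm2b had a log2 fold change of -0.59 (SE 0.17, adjusted p = 0.0568). Kdm2b passed at 0.0368 beside an epithelial-marker score, at 0.0198 by DESeq2, at 0.0339 with scaling by library size alone and at 0.0339 without KPY-Ctrl replicate 3. It did not pass with the macrophage score (0.119) or without a filter on low counts (0.0758). Of 14 fits that left out 1 tumor it passed in 1, with adjusted p up to 0.143 in the others. Morf4l1 was at 0.35 (SE 0.13, adjusted p = 0.112), Dnmt3b at -0.79 (SE 0.33, adjusted p = 0.167) and Kdm4a at -0.33 (SE 0.15, adjusted p = 0.202). The directions of all 10 members matched those without the score, except that Kdm4c turned from 0.12 to -0.01 when scaled by library size alone. Setd2 itself was at -0.83 (SE 0.19, adjusted p = 0.0268) in this fit.

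**Figure D3:**
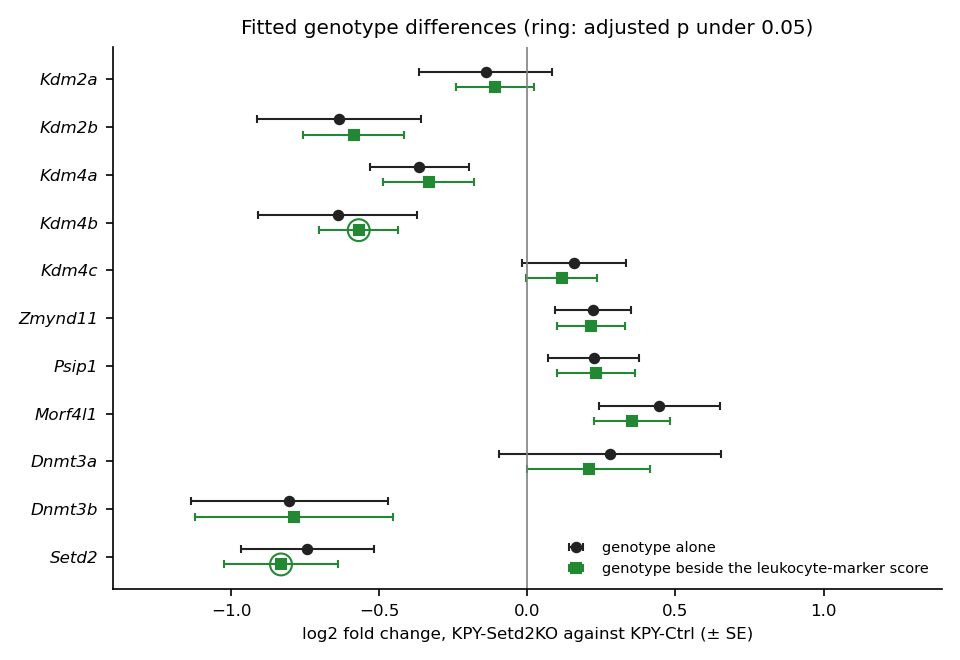
Log2 fold change of KPY-Setd2KO (n = 8) against KPY-Ctrl (n = 6) with its standard error on the horizontal axis for the 10 members and Setd2, without (black circles) and with (green squares) the leukocyte-marker score in the model. Rings mark an adjusted p under 0.05, reached by Kdm4b and Setd2 beside the score.

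Count ratios between paralogs need no scaling between tumors, and 4 were compared by two-sided exact permutation tests. The ratio of Kdm2a to Kdm2b counts ran from 4.09 to 6.73 around a median of 4.70 in KPY-Ctrl and from 4.07 to 9.46 around 7.71 in KPY-Setd2KO. The log2 ratio was 2.27 ± 0.26 (SD, n = 6) against 2.76 ± 0.49 (SD, n = 8), with an exact permutation p of 0.0473 and an adjusted p of 0.0946 over the 4 ratios. The ratio of Dnmt3a to Dnmt3b counts ran from 7.26 to 30.7 around 21.7 in KPY-Ctrl and from 18.2 to 126 around 31.5 in KPY-Setd2KO. The log2 ratio was 4.16 ± 0.81 (SD, n = 6) against 5.31 ± 1.03 (SD, n = 8), with an exact permutation p of 0.0470 and an adjusted p of 0.0946. In the leukocyte-poor tumors the Dnmt3a to Dnmt3b ratio was 7.26 to 16.8 in controls and 18.2 to 35.2 in knockouts, without overlap. In the leukocyte-rich tumors it was 26.5 to 30.7 and 27.8 to 126, with overlap. The Kdm4a to Kdm4b and Kdm4a to Kdm4c ratios differed by 0.32 (exact permutation p = 0.247, adjusted 0.247) and -0.47 (exact permutation p = 0.0886, adjusted 0.118) on the log2 scale. The Kdm4a to Kdm4b ratio also separated in 1 set, the leukocyte-rich tumors (2.18 to 2.86 in controls, 2.96 to 4.62 in knockouts). The Kdm4a to Kdm4c ratio separated in the leukocyte-poor tumors (2.46 to 3.20 in controls, 1.48 to 2.33 in knockouts). Each overlapped in the other set, and the Kdm2a to Kdm2b ratio overlapped in both. These splits were not tested. No ratio passed after adjustment, and the Dnmt3a part of its ratio also rose with the leukocyte-marker score.

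**Figure D4:**
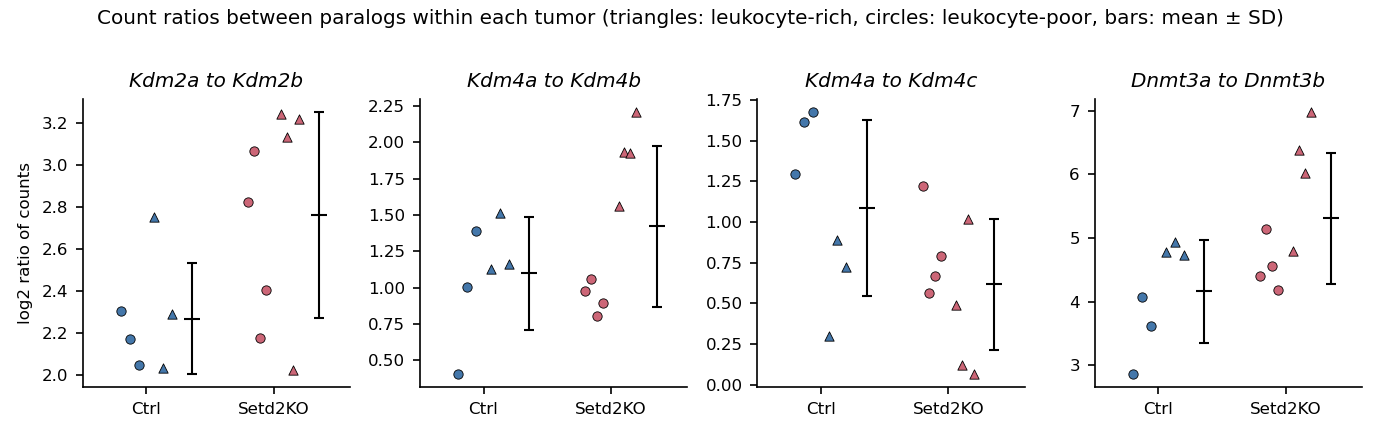
Log2 ratio of the counts of 2 paralogs within each tumor on the vertical axes, for 6 KPY-Ctrl (blue) and 8 KPY-Setd2KO (red) tumors, with triangles for leukocyte-rich and circles for leukocyte-poor tumors and bars for the mean ± SD. The Dnmt3a to Dnmt3b ratio averages 4.16 in controls and 5.31 in knockouts, and its 3 highest values are leukocyte-rich knockouts.

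Per length of annotated exons, Morf4l1 was the most abundant member in either group, at 33.9 ± 3.94 CPM per kilobase of exon (SD, n = 6) in KPY-Ctrl and 46.2 ± 13.9 (SD, n = 8) in KPY-Setd2KO. Psip1 came next at 9.94 ± 1.61 and 11.6 ± 2.10, then Kdm4a at 9.46 ± 2.58 and 7.35 ± 0.97. Psip1 and Kdm4a did not differ beyond the larger SD in KPY-Ctrl and did in KPY-Setd2KO. Kdm4b, Zmynd11, Kdm2a and Kdm4c lay between 4.34 and 5.32 in KPY-Ctrl, with neighbours within their spread. In KPY-Setd2KO the same 4 lay between 3.41 and 5.84, again with neighbours within their spread, and Kdm4b was the lowest of them, where in KPY-Ctrl it was the highest. Dnmt3a at 1.95 ± 0.98 and 2.36 ± 1.14, Kdm2b at 1.28 ± 0.45 and 0.825 ± 0.29, and Dnmt3b at 0.329 ± 0.09 and 0.188 ± 0.08 ended the order in either group. In KPY-Ctrl the gap from Dnmt3a to Kdm2b was within the larger SD, and in KPY-Setd2KO beyond it. The exon lengths join all transcripts of a gene, which lowers the level of genes with many alternative exons.

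Of 48 related genes 46 were tested, Kdm4d and Dnmt3l being too low. At an unadjusted p under 0.05 without the score, 3 were lower (Setd2, Bcor and Glyr1) and 2 higher (Mrfap1 and Hdgf) in KPY-Setd2KO, and none passed adjustment. These are 5 of 46, beside 13.7% of all genes. The median log2 fold change of the 46 was -0.16, beside 0.03 over all genes. Bcor, which scaffolds the noncanonical Polycomb complex that holds Kdm2b, was at -0.62 (SE 0.17, unadjusted p = 0.00204, adjusted p = 0.139), and by DESeq2 at -0.63 with an adjusted p of 0.0331. The other 7 partners of Kdm2b were above unadjusted 0.05. Among 9 partners of Morf4l1, Mrfap1, which binds it directly, was at 0.40 (SE 0.15, adjusted p = 0.257), and Trrap, the scaffold of the NuA4 complex, at -0.73 (SE 0.42, adjusted p = 0.478).

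Beside the score 4 of the 46 passed, where 5.38% of all genes did. All 4 were lower, beside 2.3% of all genes called lower, or 6.0% with scaling by library size alone. One was Setd2, the target of the sgRNA. The others were Trrap at -0.72 (SE 0.14, adjusted p = 0.0144), Ep400, the ATPase of the same complex, at -0.64 (SE 0.15, adjusted p = 0.0295) and Bcor at -0.60 (SE 0.15, adjusted p = 0.0386). Ep400 was named after its values were seen. The call of Trrap held in 14 of 14 fits that left out 1 tumor, at adjusted p of 0.00797 to 0.0468. That of Setd2 held in 11, failing without KPY-Ctrl replicate 4 or 5 or KPY-Setd2KO replicate 6 (0.0658 to 0.0758). That of Ep400 held in 9, failing without KPY-Ctrl replicate 2, 4 or 5 or KPY-Setd2KO replicate 4 or 6 (0.0559 to 0.0865). That of Bcor held in 4, those without KPY-Ctrl replicate 1 or KPY-Setd2KO replicate 1, 2 or 8, with adjusted p up to 0.112 in the others. The fitted difference of Morf4l1, itself not called, was opposite in sign to those of Trrap and Ep400. Beside the score 3 of its 9 listed partners were higher and 6 lower, and the complex as a whole was not tested.

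In the other lists no gene passed for genotype in either fit. The reader Glyr1, a PWWP protein of nucleosomes, was at -0.44 (SE 0.18, adjusted p = 0.305) without the score, and Brpf3, a PWWP subunit of an acetyltransferase complex, at -0.60 (SE 0.34, adjusted p = 0.472). Of the genes listed as other erasers, whose activity on H3K36 was not examined here, Riox2 was at 0.25 (SE 0.24, adjusted p = 0.722) and Kdm8 at -0.26 (SE 0.36, adjusted p = 0.827). Kmt2a, the H3K4 methyltransferase that Psip1 tethers, was at -0.49 (SE 0.38, adjusted p = 0.633). Tet3, which oxidizes methylated cytosine, was at -0.49 (SE 0.28, adjusted p = 0.473), and Tet1 had the largest difference of the DNA methylation genes beside the score, at -0.68 (SE 0.26, adjusted p = 0.131).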

How the data were processed

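The authors measured RNA by single-end sequencing and deposited 1 table of estimated counts per gene, made with Salmon 0.8.2 against GRCm38.p5, whose values were rounded to whole numbers here. The library kit differs between the labels and the study's methods. Symbols, positions and exon lengths came from GENCODE (52403 of 52550 rows had a symbol), and promoter windows from RefSeq (GRCm38.p6), which listed 7 of the 10 members.

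Genes were filtered with filterByExpr, scaled by TMM and tested with edgeR 4.0.16 in R 4.3.3 (quasi-likelihood, robust), with Benjamini-Hochberg adjustment over the 16836 genes tested. Fits had genotype alone, or genotype with the leukocyte-marker score (mean log2 CPM, prior count 2). DESeq2 1.42.0, limma 3.58.1, other scalings, filters and scores, a block on replicate number and leaving out each tumor were alternatives. Single values were tested over all 3003 splits of the tumors. The scripts were tested on simulated data. P-values measure the spread between tumors only, and counts cover reads, not molecules. The pseudogene, antisense and overlapping genes were read from the annotation.

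Named were all members, Setd2, from each related list the genes of smallest p and of largest change, and the 3 genes nearest in profile to the member with the smallest p. The members and lists were chosen with earlier results of these data known. Replicate numbers did not pair the tumors. An allele shared by both groups and a marker gene are not reported here.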

Additional observations from a re-analysis of the deposited data

How the results depend on the processing

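Directions of the members and of Setd2 for genotype held under every alternative run, apart from the Kdm4c value given above (-0.0063 beside the score with scaling by library size alone). The slope of Zmynd11 on the score turned from 0.02 to -0.061 with scaling by library size alone, and the Tet1 difference to 0.29 by limma voom with quality weights. Over all genes the median log2 fold change was 0.03, and -0.11 when scaled by library size alone. By limma voom with quality weights 2 members passed both thresholds (Kdm2b at -1.25 and Kdm4b at -1.10), beside 4753 of 16836 genes. With those weights 8 members were under an unadjusted p of 0.05, beside 9666 of all genes, and Setd2 was at -0.75 (adjusted p = 0.00501). Those weights were 3.55 and 4.76 in KPY-Ctrl replicates 4 and 5, which are leukocyte-poor, and 1.28 to 2.10 in the 4 leukocyte-rich knockouts, and 8340 of all genes passed at an adjusted p under 0.05, against 0 by edgeR and 677 by DESeq2. Setd2 passed beside the leukocyte-marker score (-0.83) and beside the epithelial-marker score (-0.85). Beside the score the members called numbered 1, and 2 by DESeq2, 2 with scaling by library size alone and 0 with the macrophage score, and the cause was not tested. Over all genes that fit called 905, and 2255 by DESeq2, 1398 by library size alone, 513 without a filter and 354 with the macrophage score. With the epithelial-marker score in place of the leukocyte-marker score, 1243 genes were called. Leaving out each tumor in turn gave 0 members past both thresholds each time. It gave 0 to 5 under an unadjusted p of 0.05 (1609 to 2805 of all genes). With the score it gave 6 to 7 (8827 to 9848 of all genes), and for genotype beside the score 0 to 2 (160 to 1285). For Setd2 it gave -0.85 to -0.66 and for the 4 log2 ratios 0.42 to 0.60 (Kdm2a to Kdm2b), 0.18 to 0.41 (Kdm4a to Kdm4b), -0.62 to -0.35 (Kdm4a to Kdm4c) and 0.88 to 1.30 (Dnmt3a to Dnmt3b). The unadjusted exact p of each ratio but Kdm4a to Kdm4b crossed 0.05 in some of these. Same-numbered tumors correlated at -0.66 to 0.66 and 2 of 6 matched their own number best, so the numbers do not pair them. With a replicate block no gene passed adjustment, and 4 members were under an unadjusted p of 0.05, beside 1909 of 16836 genes. With the block the log2 difference of the Kdm2a to Kdm2b ratio was 0.65 (exact p = 0.0625). Depth limits Dnmt3b, at 11 to 109 counts per tumor.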
